A study of Mus musculus with 6 samples.

Results

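Carbonic anhydrases were measured in the hearts of WT mice and of TG-PKR1 mice, which overexpress prokineticin receptor 1 (PKR1). The 6 genes described are Car2, Car3, Car4, Car5b, Car8 and Car14, among 28478 gene names on the array. They were taken as every probe whose gene name in the scanner files equals 1 of these symbols, which gave 9 of the 41174 different probes other than controls. Each group held 3 male mice, 12 weeks old, and whole-heart RNA of each mouse was labelled with the dye Cy3 and hybridized to 1 Agilent array, on which brighter spots mean more of the transcript matching a short DNA probe. In TG-PKR1 mice, per the study's introduction, PKR1 is expressed under the cardiomyocyte promoter of alpha myosin heavy chain (αMHC), so that the transgene acts in heart muscle cells while the RNA comes from all cells of the organ and from any tissue attached to it. The labels give no further allele or treatment in either group and name no litter, and the methods give C57BL6/J as the strain. WT 1 to 3 and TG 1 to 3 name single hearts, with no pairing between the groups.

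Carbonic anhydrases interconvert carbon dioxide and bicarbonate, and so supply bicarbonate to transporters and carboxylases and buffer the protons that working muscle makes. The isoforms differ by where they work. Car2 and Car3 are cytosolic, Car2 being a very active enzyme that is abundant in red blood cells and Car3 a slow one that is abundant in fat and in slow skeletal muscle. Car5b lies in mitochondria, Car4 is anchored on the outside of the cell membrane, also on capillary endothelium, and Car14 spans the membrane of heart and other muscle cells. Car8 has lost the catalytic activity and is known as a binding partner of an inositol trisphosphate receptor in Purkinje cells. Together they allow a comparison of the fat and muscle isoform with the isoforms of other places in the same hearts.

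Values are log2 median spot signals, not background-subtracted, after loess normalization of each array against the median profile of all 6 arrays. The 20000 probes with the highest median were tested by limma, with Benjamini-Hochberg adjustment over all of them at a threshold of 0.05. The arrays had 19650 to 23571 probes well above background in WT hearts and 21091 to 24923 in TG hearts. By saturation value, WT 1, TG 2 and TG 3 had an extended-range scan and the other 3 hearts a single scan. The header flag for an extended range was set for all 6 arrays, so this split rests on the saturation value. Signals over background were fainter in the single scans (75th percentile 2.08 to 3.97 times the local background, against 11.4 to 14.1). The 6 arrays lay on 5 slides, of which 1 carried WT 2 and TG 1. PKR1 is encoded by Prokr1, whose probe was not well above background on any of the 6 arrays, so the transgene was not checked by it. The defining cardiomyocyte genes were bright, and all 12 cardiomyocyte markers tested were well above background on every array.

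Car3 was the isoform with the lowest TG values relative to WT, on both of its probes. The brighter probe, which carries a RefSeq Car3 accession and lies at chr3:14848525-14848584 on the plus strand of mm8, read 13.29, 13.44 and 12.32 in WT 1 to 3 and 11.43, 11.13 and 11.04 in TG 1 to 3. The highest TG heart lay below the lowest WT heart, although WT 3 stood apart from the other WT hearts. The means were 13.02 ± 0.60 in WT and 11.20 ± 0.21 in TG (SD, n = 3), a difference of -1.82 log2 units (SE 0.29, 95% confidence interval -2.47 to -1.17), or a signal 3.53-fold higher in WT. This difference did not pass the limma test (adjusted p = 0.106), and the two-sided exact permutation test over the hearts gave p = 0.1, the smallest that 3 hearts against 3 allow.

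The dimmer Car3 probe carries the accession of a cDNA clone and lies 7050 bases upstream of the brighter one, at chr3:14841475-14841534 on the same strand. Its log2 signals were 8.23, 8.18 and 8.25 in the WT hearts and 7.12, 6.89 and 6.95 in the TG hearts. The spread among WT hearts was small with this normalization (SD 0.036), and no TG heart reached any WT heart. This probe fell by 1.23 log2 units in TG hearts (SE 0.14, limma adjusted p = 0.0339), which is a signal 2.35-fold higher in WT. Its signal was 2.15 to 10.01 times the local background in WT hearts and 1.48 to 4.61 times in TG hearts, and the difference was -1.87 with the background-subtracted signal scaled to the 75th percentile instead of by loess, and -1.33 with that scaling alone. In whole-organ RNA, fewer cells of a type and less RNA per cell cannot be told apart.

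The call on the dimmer probe was sensitive to single hearts. It was lost when any heart other than WT 2 was left out, with limma adjusted p-values of 0.157 to 0.420 and differences of -1.26 to -1.12, and without WT 2 the adjusted p was 0.0496. It was also lost with 75th percentile scaling, with all non-control probes, with a filter for signal well above background, with scan mode as a block (-1.20, limma adjusted p = 0.189) and in the authors' normalized values, where this probe read 9.34, 8.21 and 8.88 in the WT hearts and 7.59, 7.85 and 8.11 in the TG hearts (-0.96, limma adjusted p = 1.0).

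Of the 8 carbonic anhydrase probes among the 20000, 1 was called lower by limma, against 0.095% of all probes tested, and 0 were called higher, against 0% of all probes. At an unadjusted limma p under 0.05, 3 of the 8 were lower, against 1.66% of all probes. The TG hearts lay entirely below the WT hearts for 3 of the 8 probes, against 2.73% of all probes, and entirely above them for 0, against 2.68%. SAM, the permutation-based test that the study's methods name, called 2 of the 8 lower, against 0.281% of all probes, and those 2 were the Car3 probes.

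**Figure D1:**
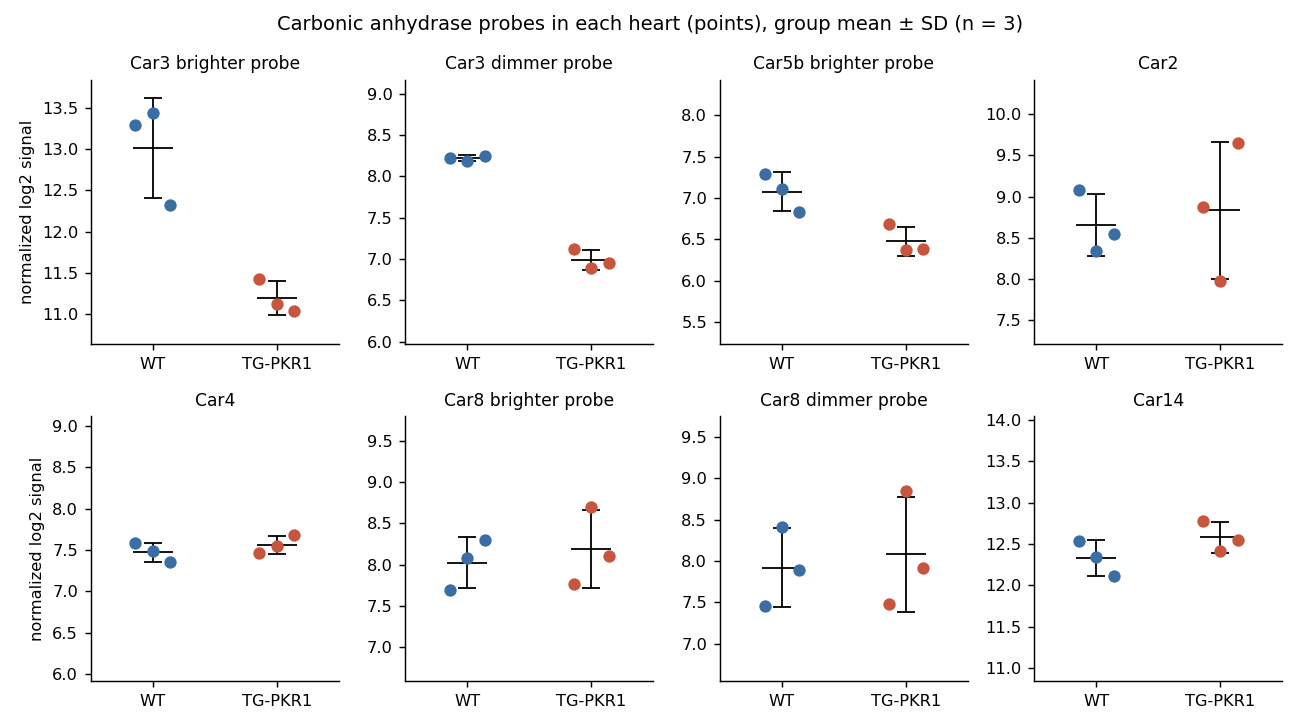
Normalized log2 signal (vertical axes, each spanning the same number of log2 units) of the 8 tested carbonic anhydrase probes in each heart (points), with the mean and SD of the 3 WT and 3 TG-PKR1 hearts. The groups are apart for both Car3 probes and for the brighter Car5b probe, and overlap for Car2, Car4, both Car8 probes and Car14.

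Car5b, the mitochondrial isoform, was the only other of the 6 genes with TG hearts entirely below WT hearts. Its brighter probe, at chrX:159323258-159323317 on the minus strand of mm8, read 7.29, 7.11 and 6.83 in WT 1 to 3 and 6.68, 6.37 and 6.38 in TG 1 to 3. The gap between WT 3 and TG 1 was small beside the spread within WT. The difference was -0.60 log2 units (SE 0.18, 95% confidence interval -1.0 to -0.19), or a signal 1.51-fold higher in WT, and it did not pass the test over all probes (limma adjusted p = 1.0). The signal was only 1.42 to 4.86 times the local background, and the difference was -1.35 with the background-subtracted signal scaled to the 75th percentile and -0.95 with that scaling alone. The dimmer Car5b probe, from a cDNA clone at chrX:159356409-159356468, was well above background on 0 of 6 arrays and was not among the 20000, so it has no fold.

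Car2, the red cell isoform, varied more between hearts of a group than between the groups. Its probe, at chr3:14876950-14877009 on the plus strand, read 9.07, 8.34 and 8.54 in WT hearts and 8.88, 7.98 and 9.64 in TG hearts. TG 2 was the lowest and TG 3 the highest of all 6 hearts. The difference was 0.18 log2 units (SE 0.39, 95% confidence interval -0.70 to 1.06, limma adjusted p = 1.0), and a difference of moderate size in either direction lay within this interval. Without TG 3 the difference turned to -0.21.

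Car4, on the outer face of the membrane, varied little between hearts of a group (SD 0.12 in WT and 0.11 in TG). Its probe, at chr11:84781003-84781062 on the plus strand, read 7.58, 7.49 and 7.35 in WT hearts and 7.46, 7.54 and 7.68 in TG hearts. The difference was 0.09 log2 units with a 95% confidence interval of -0.25 to 0.42 (limma adjusted p = 1.0), and the groups overlapped. Its signal was 1.51 to 7.38 times the local background, and the difference was 0.22 with the background-subtracted signal scaled to the 75th percentile. It turned to -0.046 with 75th percentile scaling alone and to -0.0061 without WT 3.

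Car14, the membrane-spanning isoform of muscle cells, was bright in every heart and was not lower in TG. The probe at chr3:95983341-95983400, on the minus strand, read 12.54, 12.35 and 12.11 in WT hearts and 12.78, 12.41 and 12.55 in TG hearts. TG 1 was the highest heart, WT 3 the lowest, and the groups overlapped. The difference was 0.25 log2 units (SE 0.17, 95% confidence interval -0.15 to 0.65), with a limma adjusted p of 1.0 and an exact permutation p of 0.2.

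Car8, the isoform without enzyme activity, has a pair of probes from the same accession, 2159 bases apart on the minus strand of chromosome 4, at chr4:8072704-8072763 and chr4:8070545-8070604. The brighter probe read 7.69, 8.08 and 8.30 in WT hearts and 7.77, 8.70 and 8.11 in TG hearts. The dimmer one read 7.46, 8.41 and 7.89 in WT hearts and 7.49, 8.84 and 7.92 in TG hearts. Both probes were highest in TG 2 and low in WT 1 and TG 1, and the groups overlapped. Their differences of 0.17 (SE 0.26) and 0.16 (SE 0.36) were smaller than the spread within either group (limma adjusted p = 1.0 for each), and both turned negative without WT 1 and without TG 2.

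**Figure D2:**
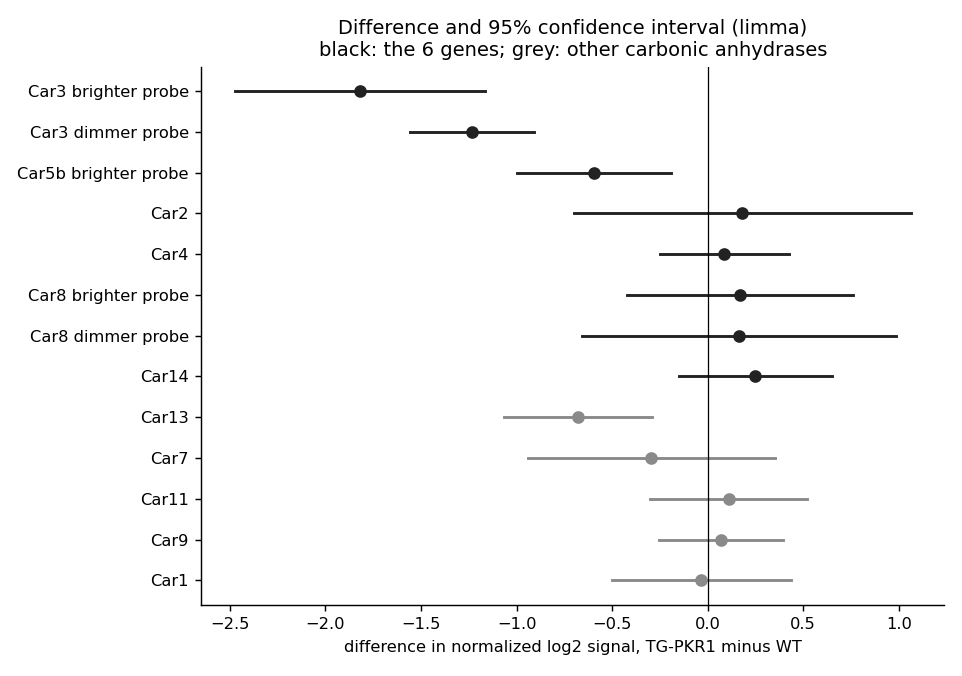
Difference in normalized log2 signal, TG-PKR1 minus WT (horizontal axis), with its 95% confidence interval from limma, for the tested probes of the 6 genes (black) and for other carbonic anhydrases (grey). The intervals of both Car3 probes, the Car5b probe and Car13 lie below 0, and those of the other probes include it.

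The contrast between Car3 and each other isoform was then compared directly, as the within-heart log2 difference between the brighter Car3 probe and the probe of the other isoform (the brighter one where there was a pair). Relative to its WT mean, Car3 minus Car14 was 0.06, 0.41 and -0.47 in WT 1 to 3 and -2.04, -1.97 and -2.20 in TG 1 to 3. The TG hearts were close to each other and far below every WT heart. The shift from WT to TG was -2.07 log2 units against Car14, -2.0 against Car2, -1.99 against Car8 and -1.91 against Car4. Against Car5b it was smaller, -1.22, and Car5b was itself lower in TG hearts. All 3 TG hearts lay below all 3 WT hearts in each of the 5 comparisons, and each gave p = 0.1 by a two-sided exact permutation test (0.1 after Benjamini-Hochberg adjustment over the 5), the smallest p possible.

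With the dimmer Car3 probe the shifts were -1.48 against Car14, -1.42 against Car2, -1.40 against Car8, -1.32 against Car4 and -0.64 against Car5b, again with no overlap of the hearts. In the authors' values the hearts overlapped for this probe against Car2 and against Car5b. Of the comparisons with the brighter Car3 probe, the one with Car5b moved most with the processing. Its shift of -1.22 became -0.53 with the background-subtracted signal scaled to the 75th percentile and -0.71 with that scaling alone, where the hearts overlapped.

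**Figure D3:**
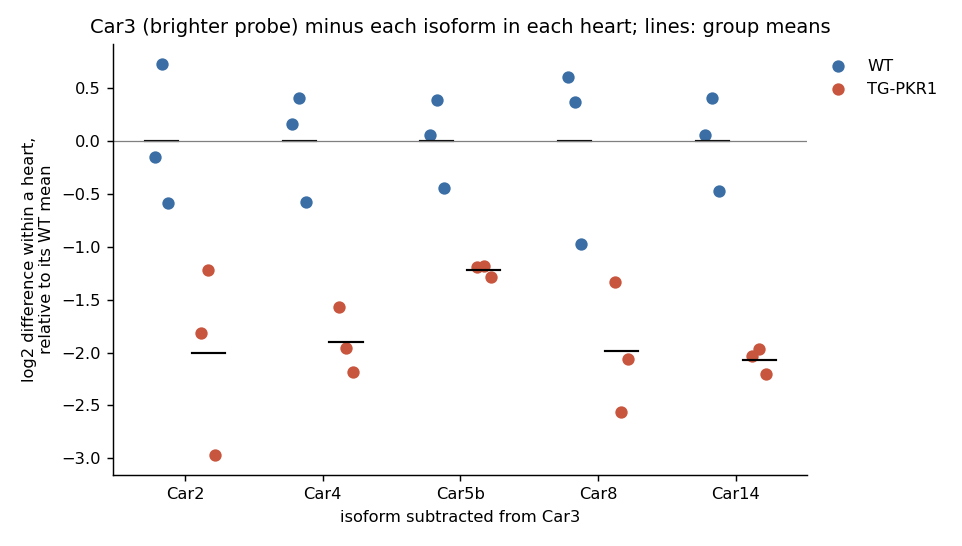
Within-heart log2 difference between the brighter Car3 probe and the probe of each other isoform, relative to the WT mean of that difference (vertical axis), for 3 WT hearts (blue) and 3 TG-PKR1 hearts (red), with group means as lines. The TG hearts lie below the WT hearts for every isoform, by -1.22 on average for Car5b and by -1.91 to -2.07 for the others.

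Scan mode, read from the saturation value and not from the header flag, was taken as a batch. Each mode held hearts of both groups, so the values were also taken within each mode. The brighter Car3 probe differed by -2.20 among the extended-range arrays and by -1.45 among the single-scan arrays, and TG 1 minus WT 2, which shared a slide, was -2.01. The dimmer probe gave -1.31, -1.10 and -1.06 in the same order, so that every within-batch value of Car3 was negative and above a log2 unit in size. Car5b was also negative throughout, at -0.91, -0.29 and -0.43. The other isoforms did not keep a direction. Car4 gave 0.03, 0.04 and -0.03. Car2 differed by -0.26 and 0.43, Car14 by -0.06 and 0.55, and the Car8 probes by 0.71 and 0.92 on extended-range arrays against -0.42 and -0.66 on single-scan arrays.

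Among the other carbonic anhydrases, all 10 were on the array and 5 were among the 20000 probes. None of the 5 passed the limma test, and their median difference was -0.03, against 0.03 over all probes tested. It was -0.27 with the background-subtracted signal under 75th percentile scaling, -0.30 with that scaling alone and 0.09 without TG 3. At an unadjusted p under 0.05, 1 of the 5 was lower, against 1.66% of all probes, and that was Car13, a cytosolic isoform, with 7.33, 6.83 and 7.14 in WT hearts and 6.51, 6.40 and 6.36 in TG hearts. Its TG hearts were all below its WT hearts, and the difference was -0.68 log2 units (SE 0.17, limma adjusted p = 0.721). In the RefSeq table Car13, Car1 (named here for its place only), Car3 and Car2 follow each other among the protein-coding genes of chromosome 3. Of these 4 neighbours, Car1 had a difference of -0.03 and Car2 one of 0.18, beside those of Car13 and Car3, and among these neighbours only the contrast of Car3 with Car2 was tested. Car7, another cytosolic isoform, differed by -0.29 with overlapping hearts.

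The partners of carbonic anhydrases in bicarbonate and proton handling were taken from lists of transporters and enzymes. Of 9 bicarbonate transporters tested, 0 passed the limma test and the median difference was 0.10 (-0.19 with 75th percentile scaling and -0.08 without WT 3), and 2 were lower at an unadjusted p under 0.05, against 1.66% of all probes. These were the sodium bicarbonate cotransporters Slc4a7, with 12.36, 12.48 and 13.88 in WT hearts against 11.47, 11.76 and 10.53 in TG hearts, and Slc4a4, with a difference of -0.85 (SE 0.22). The hearts did not overlap for either, and the limma adjusted p-values were 0.871 and 0.841. Slc4a4 was well above background on only 5 arrays, so the size of its difference is limited by its signal. Of 10 proton and lactate transporters tested, 0 passed and 0 had an unadjusted p under 0.05, with a median of 0.01 and a range of -0.28 to 0.32.

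The enzymes that fix bicarbonate gave 0 calls among 8 tested, with a median difference of -0.02. Acaca, the acetyl-CoA carboxylase of fatty acid synthesis, read 9.44, 8.05 and 8.60 in WT hearts and 7.44, 6.94 and 6.79 in TG hearts. Its TG hearts were all below its WT hearts, by -1.64 log2 units on average (SE 0.34, limma adjusted p = 0.317). Pcx, the pyruvate carboxylase of mitochondria, differed by -0.72 and Cad, of pyrimidine synthesis, by -0.47, and both were among the 3 of 8 that were lower at an unadjusted p under 0.05, against 1.66% of all probes. The other 5 carboxylases had differences of -0.03 to 0.34.

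Since Car3 is abundant in fat and muscle, its values were set beside marker genes of these and other cell types. Adipocyte markers were lower in TG hearts with it. Of 12 tested, 4 were called lower by limma, against 0.095% of all probes, and 10 had all TG hearts below all WT hearts, against 2.73% of all probes, with a median difference of -1.50. The called genes were Adipoq (adiponectin) at -1.93, Plin1 (a lipid droplet coat protein) at -2.25, Gpd1 (which makes glycerol phosphate) at -1.99 and Cidec (a lipid droplet protein) at -2.02 (limma adjusted p = 0.0339 for the first 3 and 0.0387 for Cidec). Like the call on Car3, these calls were lost with scan mode, by saturation value, as a block and without any 1 heart other than WT 2. They were also lost with 75th percentile scaling, all non-control probes, a filter for signal well above background and the authors' values. In each of these fits limma called 0 probes on the whole array. Of 8 brown adipocyte markers tested, 1 was called lower, Ucp1, the uncoupling protein, which fell by 3.23 log2 units (SE 0.42, limma adjusted p = 0.0445). The Ucp1 call was lost in the same fits. The median of the list was -0.83, or -0.30 in the authors' values. The list was split, with 4 genes at -3.23 to -1.39 and the other 4 at -0.27 to 0.49. All 20 tested genes of both lists except Elovl3 were well above background on every array.

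Relative to their WT means, the median adipocyte marker was at 0.19, -0.03 and -0.27 in WT 1 to 3 and at -1.24, -1.21 and -1.75 in TG 1 to 3. The brighter Car3 probe was at 0.27, 0.42 and -0.69 in the same WT hearts and at -1.59, -1.89 and -1.98 in the TG hearts. WT 3 was the lowest WT heart and TG 3 the lowest TG heart on both of these measures. This order was not shared by the dimmer Car3 probe, which was lowest in WT 2 (-0.04) and TG 2 (-1.33). Nor was it shared by the median brown adipocyte marker, lowest in WT 1 (-0.05) and TG 2 (-0.97). The mean log2 signal over the tested adipocyte markers was 12.64 to 13.04 in WT hearts and 11.31 to 11.69 in TG hearts, and over the brown adipocyte markers 12.51 to 12.61 and 11.20 to 11.65. The part of fat in the Car3 difference was not tested.

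Skeletal muscle markers did not move with Car3. Of 12, 7 were tested, 0 passed the limma test, and the median difference was 0.17, and 1 of the 7, Mybpc2, had all TG hearts above all WT hearts, against 2.68% of all probes. The mean log2 signal over these 7 was 9.57 to 9.98 in WT hearts and 9.77 to 10.13 in TG hearts. The fast myosin Myh4 and the calcium pump Atp2a1 were bright and well above background on all 6 arrays, while Pvalb, the parvalbumin of fast muscle, was so on 0. The list holds genes of fast fibres mainly, while Car3 is known from slow ones, and Myh1, Myh2, Myh4 and Pvalb were picked after their values were seen.

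**Figure D4:**
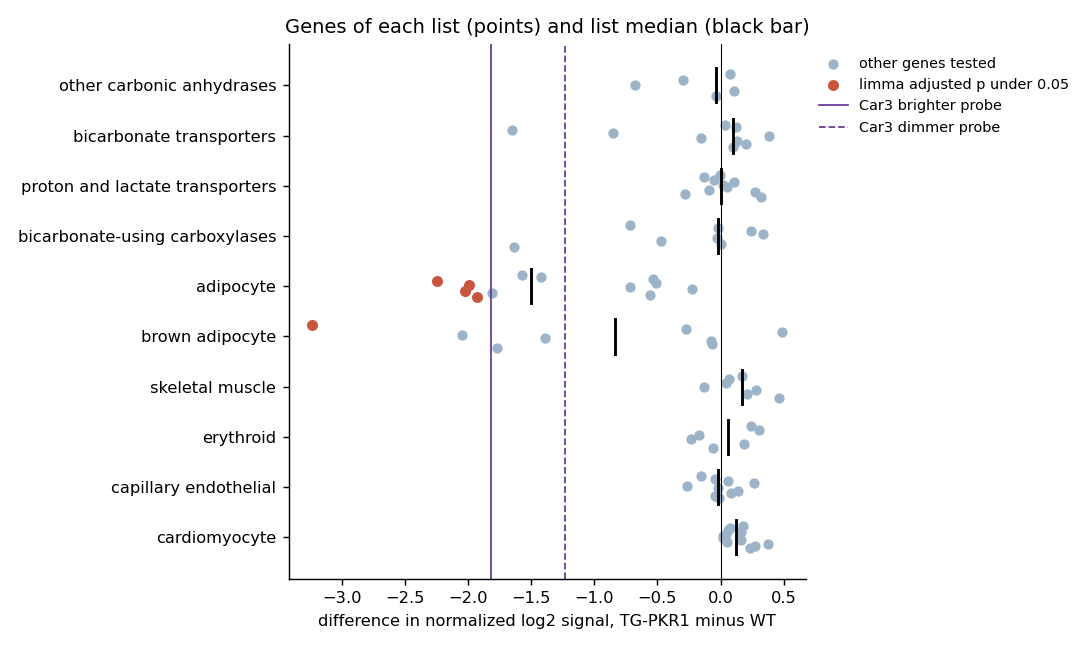
Difference in normalized log2 signal, TG-PKR1 minus WT (horizontal axis), of each tested gene in lists of carbonic anhydrases, their partners and cell type markers (points, red where the limma adjusted p is under 0.05), with the list median as a black bar and the Car3 probes as vertical lines at -1.82 and -1.23. The adipocyte list, with a median of -1.50, and part of the brown adipocyte list lie near the Car3 lines, and the other medians lie between -0.03 and 0.17.

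The marker lists for the cell types of the other isoforms had medians of -0.02 to 0.12, against 0.03 over all probes. Of the 6 erythroid markers tested, 0 passed the limma test and the median was 0.06, which ranged from -0.42 without TG 1 to 0.29 without TG 2. The median erythroid marker was at 0.11, -0.08 and -0.17 relative to its WT mean in WT 1 to 3 and at 0.41, -0.44 and 0.47 in TG 1 to 3. Car2 was at 0.42, -0.31 and -0.11 in WT 1 to 3 and at 0.22, -0.67 and 0.99 in TG 1 to 3. TG 2 was thus the lowest and TG 3 the highest heart for Car2 and for the erythroid median. Of the 6 erythroid markers taken singly, only Eraf had this order. Spnb1 and Spna1 were highest in TG 3 but lowest in WT 2, and the remaining markers were highest in hearts other than TG 3. The part of blood in the spread of Car2 was not tested.

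Capillary endothelial markers, the cells in which Car4 is known, had 0 of 10 past the limma test and a median of -0.02, beside 0.09 for Car4. Of 12 cardiomyocyte markers tested, 0 passed, and the median was 0.12, beside 0.25 for Car14. The median cardiomyocyte marker was at 0.17, -0.03 and -0.19 in WT 1 to 3 and at 0.47, -0.18 and 0.15 in TG 1 to 3, where Car14 was at 0.21, 0.01 and -0.22 and at 0.45, 0.08 and 0.22. TG 1 was the highest heart and WT 3 the lowest for both, although the cardiomyocyte median was almost as low in TG 2 (-0.18), where Car14 was at 0.08. In the skeletal muscle, erythroid, endothelial and cardiomyocyte lists 0 genes had an unadjusted limma p under 0.05, and SAM called 0. SAM called 7 of the 12 adipocyte and 4 of the 8 brown adipocyte markers lower, against 0.281% of all probes.

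**Figure D5:**
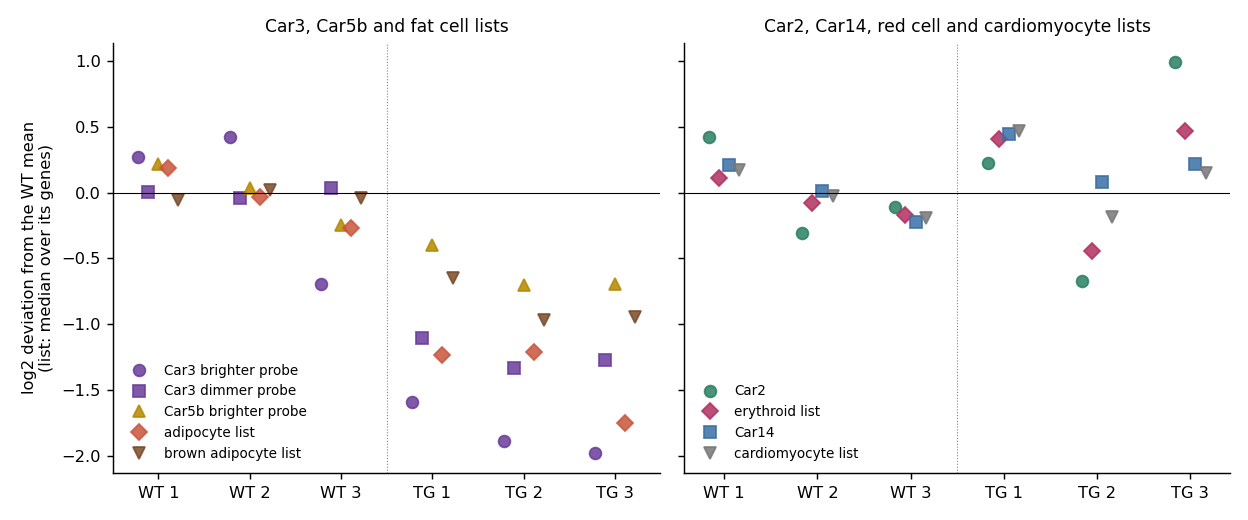
Log2 deviation of each heart from the WT mean (vertical axis) for single probes and for the median gene of a marker list, in 3 WT and 3 TG-PKR1 hearts (horizontal axis). In the left panel Car3, Car5b and both fat cell lists lie below 0 in every TG heart, and in the right panel Car2 and the erythroid list are both lowest in TG 2 and highest in TG 3, while Car14 and the cardiomyocyte list are highest in TG 1.

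Over the 6 hearts, the genes whose pattern was most like that of the brighter Car3 probe, by Pearson correlation among 19953 other probes measured on all arrays, included in order Cyp2e1 (r = 0.98), Marco (r = 0.98), Cidec (r = 0.97), Itpka (r = 0.97), Slc1a5 (r = 0.97), Fabp4 (r = 0.96), Gpat4 (r = 0.96), Slc1a3 (r = 0.96), Car5b (r = 0.96) and Igf1 (r = 0.96). The groups are apart for Car3, so these values describe the group difference together with the spread inside it, and they carry no p. Car5b was thus the isoform closest to Car3, and the dimmer Car3 probe had r = 0.92. Cyp2e1, a cytochrome P450, read 10.72, 11.12 and 10.42 in WT hearts and 9.70, 9.57 and 9.33 in TG hearts. Of the 10, Cidec was the one called by limma. Car2, Car4, Car8 and Car14 had r of -0.42 to -0.16 with Car3.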

How the data were processed

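Per the labels, total heart RNA of 3 WT and 3 TG-PKR1 mice was labelled with Cy3 and hybridized to single-colour Agilent arrays. The authors deposited scanner values per spot, which are fluorescence intensities extracted with Agilent Feature Extraction 9.5.1.1 and not normalized between arrays. A second deposited file holds the authors' log2 values for 19996 probes, which per the methods were LOWESS-corrected, averaged over replicate probes and filtered on median expression. Its column medians are 9.46 to 9.53, they correlate with the log2 scanner signals at r of 0.978 to 1.00 across probes, and any offset or scale factor in it is unknown. All 6 of its columns were matched to a heart.

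Control spots and outlier spots were left out. Without background subtraction, log2 median signals went through loess against the median of the arrays (span 0.3, 4 iterations) and were averaged per probe. The brightest 20000 probes by median were fitted with limma 3.58.1 in R 4.3.3. The threshold was an adjusted p of 0.05. None of the carbonic anhydrase spots was marked as outlier or saturated. Probe positions are those of mm8 in the files, and accessions were named through RefSeq records of GRCm38.p6, which held 15334 of the 20000. Exact permutation tests and SAM used the 20 assignments of the hearts, and SAM was read where its estimated false discovery rate first reached 0. The procedure was tested on simulated data.

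Lists of 111 genes in all were written from general knowledge, with 1 probe a gene, the brightest. The genes, lists and tests were chosen with earlier results of these data known. Named were every probe of the 6 genes, every list gene past the threshold and otherwise at most 3 a list with the smallest p, and the 10 genes most correlated with Car3. Car1, Elovl3, Myh1, Myh2, Myh4 and Pvalb were named outside this rule, after their values were seen. Alternatives were the mean or processed signal, normexp (offset 50) with quantile normalization, quantile or 75th percentile scaling, outlier spots kept, other probe filters, the values of the authors, other settings of eBayes, SAM, scan mode as a block and each heart left out. Where nothing names separate litters, p-values measure the spread between these hearts. Precision is limited by having 6 arrays.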

Additional observations from a re-analysis of the deposited data

How the results depend on the processing

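Both Car3 probes stayed lower in TG hearts under all 18 alternatives, the brighter probe at -2.17 to -1.61 and the dimmer at -1.87 to -0.96. The brighter probe was called by SAM (-1.82) and by no other alternative. The dimmer probe was not called with 75th percentile scaling (-1.33, limma adjusted p = 0.526), all non-control probes (-1.23, 0.199), a filter for signal well above background on at least 3 arrays (-1.23, 0.0567), the authors' table (-0.96, 1.0) or scan mode as a block (-1.20, 0.189), and the number of carbonic anhydrase probes called lower was then 0. It was 2 with SAM. Over all probes, 75th percentile scaling, all non-control probes, the authors' table and the scan mode block gave 0 calls in place of 19. The background filter, which kept 23205 probes and so more than the 20000 of the main fit, also gave 0 calls. So did 5 of the 6 left-out hearts. Quantile normalization gave 33, trend and robust eBayes 31 and SAM 56. With 1 heart left out, the dimmer Car3 probe ranged from -1.36 to -1.12, the brighter from -2.17 to -1.61 and the count from 0 to 1.

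Differences near 0 turned. Car8's dimmer probe was -0.028 with processed signals under 75th percentile scaling and Car4 -0.046 with that scaling of the median signal. With 1 heart left out, Car2 ranged from -0.21 to 0.62, Car4 from -0.0061 to 0.16, and the Car8 probes from -0.055 to 0.43 and from -0.18 to 0.51. The median of the brown adipocyte list was -1.03 with the processed signal and -0.30 with the authors' values. With 75th percentile scaling the medians of the other carbonic anhydrases and the bicarbonate transporters were -0.30 and -0.19. List medians near 0 changed sign under some alternative for every list other than the adipocyte, brown adipocyte and skeletal muscle lists. The cause of these moves was not tested. Car3 minus each isoform kept its direction under all 15 alternatives run for it. Slide as a random block could not be fitted, since limma estimates no correlation from 5 slides for 6 arrays. No paired analysis was possible because only WT 2 and TG 1 share a slide and nothing in the labels pairs the other hearts. Dim probes such as Car5b are limited by their signal over background.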
